A study of Mus musculus with 4 samples.

Results

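The genes described here encode cytokines, or cytokine subunits, that thymic regulatory T (Treg) cells can make: Il2, Lta, Ltb, Osm, Tnf, Areg and Ebi3. They were taken by name, 7 of the 27998 genes in the count table, by a rule that uses no measured value. The names were nevertheless chosen with earlier results of these data known. All 7 had at least 50 UMIs, the minimum used for every ratio below. A UMI, or unique molecular identifier, marks 1 captured RNA molecule, and levels are given as CPM, the gene's UMIs per 1000000 UMIs of the same cells.

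The cells were thymic Treg cells of 3-week-old mice on a B6 background carrying the Rag2-Gfp and Foxp3-Thy1a reporters, sorted as CD4+CD8-Thy1.1+GFP+ and captured with a droplet 3' kit. Thy1.1 reports Foxp3, the lineage-defining factor of Treg cells, and GFP marks T cells that formed recently. There were 4 samples, 1 each of IL2 o/o (IL2 KO), IL15 o/o (IL15 KO), IL2 wt/wt and IL15 wt/wt mice, and the study asked what IL-2 and IL-15 contribute to Treg development. The count table held 8273 cells whose barcodes end in 1 of 4 suffixes, taken as libraries 1 to 4, but no label ties a suffix to a genotype. No knockout was therefore compared with a wild type, no genotype was inferred from any value, and a difference between libraries may be one of genotype, mouse or library preparation, which cannot be told apart.

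Cytokines act over short distances within the thymus. IL-2 is the growth factor that Treg cells take up through a receptor built from Il2ra, Il2rb and Il2rg, and Treg cells are better known for consuming it than for making it. Lymphotoxin α and lymphotoxin β, the products of Lta and Ltb, and TNF are related ligands. The mixed lymphotoxin trimer signals through Ltbr and helps to organise lymphoid tissue and the medullary epithelium of the thymus, while TNF and the lymphotoxin α trimer signal through Tnfrsf1a and Tnfrsf1b. Oncostatin M (Osm) is a cytokine of the IL-6 family that signals through Il6st. Amphiregulin (Areg) binds the epidermal growth factor receptor and is known from tissue-repairing Treg cells, and Ebi3 is a subunit shared by IL-27 and IL-35. Nr4a3, Egr2 and Irf4, used below to divide the cells, encode transcription factors that T cell receptor (TCR) signalling induces, and are called the TCR-response genes here.

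The genes lie on 4 chromosomes of GRCm38. Ltb (17:35194439-35196320, plus strand), Tnf (17:35199381-35202007, minus strand) and Lta (17:35203165-35205351, minus strand) are direct neighbours, and Ebi3 (17:55952640-55957022, plus strand) lies elsewhere on chromosome 17. Il2 lies at 3:37120523-37125959 on the minus strand, Osm at 11:4236420-4241026 and Areg at 5:91139599-91148432, both on the plus strand. Promoter sequences were available for 6 of the 7 genes from RefSeq on GRCm38.p6. The 250 bases before the start of Areg (chr5:91139349-91139598, plus strand), Il2 (chr3:37125955-37126204, minus strand) and Lta (chr17:35205352-35205601, minus strand) are printed 5′ to 3′ because these genes differed in how their levels went with the 2 divisions of the cells below. Capitals mark the cyclic AMP response element TGACGTCA in Areg, the NFAT core GGAAA, on either strand, in Il2, and the STAT spacing TTCNNNGAA in Lta.
Areg: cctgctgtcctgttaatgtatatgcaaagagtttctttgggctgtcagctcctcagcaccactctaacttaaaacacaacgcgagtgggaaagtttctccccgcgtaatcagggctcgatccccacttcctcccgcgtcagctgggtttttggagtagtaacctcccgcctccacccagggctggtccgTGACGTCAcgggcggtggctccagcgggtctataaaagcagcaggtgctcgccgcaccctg
Il2: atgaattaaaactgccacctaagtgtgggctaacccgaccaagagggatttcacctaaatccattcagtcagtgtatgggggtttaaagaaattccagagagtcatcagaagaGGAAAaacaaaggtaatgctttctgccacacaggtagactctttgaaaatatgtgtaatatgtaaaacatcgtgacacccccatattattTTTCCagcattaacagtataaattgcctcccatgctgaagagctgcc
Lta: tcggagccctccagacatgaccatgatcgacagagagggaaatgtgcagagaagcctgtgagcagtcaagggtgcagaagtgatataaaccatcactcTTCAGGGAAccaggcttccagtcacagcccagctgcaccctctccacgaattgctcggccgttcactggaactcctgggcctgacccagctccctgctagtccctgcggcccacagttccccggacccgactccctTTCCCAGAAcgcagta
The Areg promoter held the full TGACGTCA site at bases 61 to 54 before the start, the 1 match among the 6 promoters, and 1.55% of 32841 mouse promoters of the same length held one. The Il2 promoter held the GGAAA core 137 and 47 bases before the start, but this short motif was found on either strand in 6 of the 6 promoters and in 55.6% of all promoters. The Lta promoter held TTCNNNGAA 152 and 16 bases before the start, the second overlapping a GGAAA core, Ltb held 1 such match, and 7.02% of all promoters held it. The AP-1 motif TGANTCA was in 0 of the 6 and in 6.75% of all promoters, and the NF-kB consensus was in Ltb and Ebi3 and in 7.25% of all promoters. Both strands were searched, and a match is a description of letters.

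The libraries held 1609, 2452, 2037 and 2175 cells with 7890384, 11274713, 5717732 and 8349421 UMIs. Library 3 stood apart from the others: 6.82% of its cells had an Il2ra UMI, against 32.2% to 39.4% in libraries 1, 2 and 4, its median cell had 2501 UMIs against 3019 to 3857, and its 2 erythroid genes summed to 1534 CPM against at most 0.719 CPM. Each result below is therefore given with and without it where it rests on it. The 9 Treg genes summed to 2735 CPM in library 3, against 3433 to 3840 CPM in the others. Foxp3 (12.6 to 14.3 CPM) and Ikzf2 (914 to 1042 CPM) were not low there, but 6 members were: Tnfrsf18 (600 against 804 to 968 CPM), Tnfrsf4 (772 against 1116 to 1327 CPM), Ctla4 (82.9 against 143 to 180 CPM), Gpr83 (78.2 against 160 to 193 CPM), Lrrc32 (24.5 against 68.3 to 81.2 CPM) and Nrp1 (23.3 against 48.2 to 60.2 CPM). Of genes used as markers of other cells, Itgax, Csf1r, Flt3, Siglech and Ncr1 had 0 UMIs. Others in those lists were counted: Nkg7 had 4627 UMIs, Cd74 2359, Epcam 499, Cd79b 449 and H2-Aa 48. In addition, 81 cells had UMIs of at least 2 of Dntt, Rag1 and Cd8b1, which mark CD4 CD8 double-positive thymocytes. The libraries shared 27 barcodes, 54 cells, and leaving those cells out changed no call of the 7 genes. Intervals in this text are exact 95% Poisson intervals for CPM and exact Clopper-Pearson intervals for shares. They cover counting error only, since cells of 1 library are not replicates, and no test between groups of mice was possible.

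Apart from Ltb, the cytokine genes were counted in few cells, usually as single molecules. Ltb had 41527 UMIs in 7621 cells, 92.1% of all, and up to 44 in 1 cell. Lta had 1881 UMIs in 1356 cells (16.4%) and Il2 had 1184 in 1075 cells (13.0%). Osm had 478 UMIs in 440 cells (5.32%), Ebi3 313 in 257 cells (3.11%), Areg 138 in 108 cells (1.31%) and Tnf 99 in 90 cells (1.09%). A single UMI was all that was found in 90.9% of Il2-positive, 92.3% of Osm-positive and 91.1% of Tnf-positive cells, against 76.4% of Lta-positive and 12.7% of Ltb-positive cells. At least 1 of the 6 genes other than Ltb was found in 33.1% of cells, and in 19.6% after each cell was thinned to 1811 UMIs, which 7447 cells had.

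How unevenly a gene's UMIs were spread over cells differed among the 7. A dispersion index of 1 means that cells vary as their depth and their library alone would give. Across 10177 genes its median was 1.06 and its 90th percentile 1.27. Il2 had an index of 1.01 and Ebi3 of 0.96, at or under the median gene. Ltb (2.55), Areg (1.67), Lta (1.57) and Tnf (1.31) were above the 90th percentile, so that some cells held more of these UMIs than depth gives, and Osm (1.24) was just under it.

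The double-positive-marker cells, which may or may not be Treg cells, were set against all other cells. Il2 measured 39.0 CPM (20.2 to 68.2) in these 81 cells, against 35.6 CPM (33.6 to 37.7) in the other 8192 cells. It was found in 12.3% of double-positive-marker cells, against 13.0% of the others, at median depths of 2228 and 3147 UMIs. The interval of the double-positive-marker cells held the Il2 level of the others. Whether these cells are double-positive thymocytes, and whether the Il2 counts are background RNA, was not tested. The Il2 comparison rests on 12 Il2 UMIs in cells chosen by a few marker UMIs, and no background level was measured directly. Lta was different, with 6.51 CPM (0.788 to 23.5) in double-positive-marker cells, from 2 UMIs in 1 cell, against 57.1 CPM in the others. Ltb measured 543 CPM (464 to 632) against 1256 CPM. Osm, Tnf and Areg had 0 UMIs in double-positive-marker cells, where 3 UMIs would be 9.76 CPM, against 14.5, 3.01 and 4.19 CPM in the others, so that the depth there can set a limit under the others' level for Osm but not for Tnf or Areg. Ebi3 was higher in double-positive-marker cells, at 26.0 CPM (11.2 to 51.3) against 9.26 CPM (8.25 to 10.4) in the others, but 7 of those 8 UMIs were in 1 cell. Its share was 2.47% (0.300 to 8.64%) against 3.11%, which lies inside that interval. Whether these counts are background RNA was not tested.

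**Figure D1:**
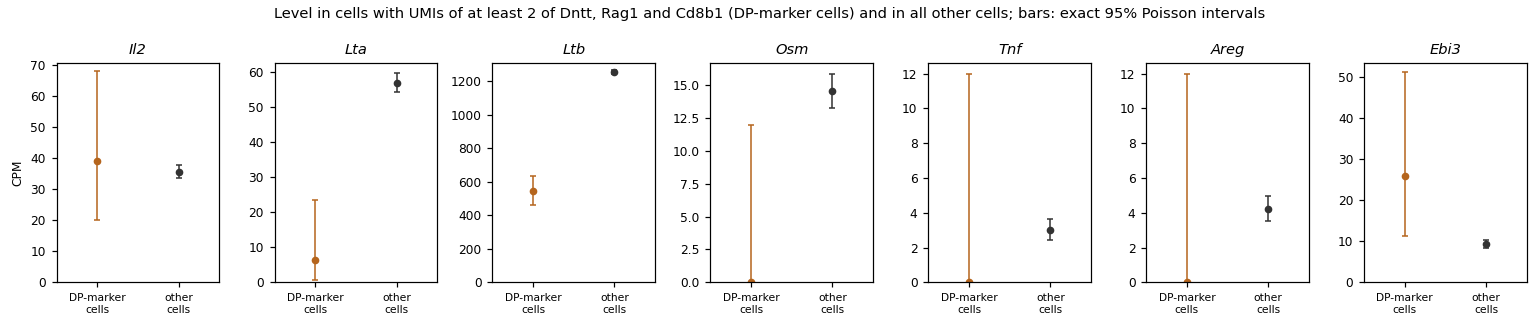
Level of each gene in CPM (linear axis from 0) in the 81 double-positive-marker cells and in the other 8192 cells, all libraries together. Points are CPM and bars exact 95% Poisson intervals. The Il2 interval in the double-positive-marker cells (20.2 to 68.2 CPM) holds the level of the others, whereas Lta (6.51 against 57.1 CPM) and Ltb (543 against 1256 CPM) are lower and Ebi3 (26.0 against 9.26 CPM) is higher in the double-positive-marker cells.

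Across libraries, 3 of the 7 genes were apart: their highest and lowest libraries differed at least 1.5-fold with intervals that did not overlap. The same held for 24.0% of all 10177 genes, with library 3 the lowest in 11.0% of all genes. Lta measured 60.2, 65.1, 28.3 and 61.1 CPM in libraries 1 to 4. Library 3 was low and the other 3 lay close together, a 2.30-fold span. The share of Lta-positive cells was 19.0, 21.4, 7.51 and 17.1%, and after thinning it was 9.89, 11.6, 5.36 and 9.89%, again lowest in library 3. Ebi3 measured 11.9, 10.6, 5.42 and 8.26 CPM, with library 3 the lowest of the 4. Areg went the other way, with 3.04, 3.73, 7.17 and 3.71 CPM, a 2.36-fold span with library 3 the highest. These Areg levels rest on 24, 42, 41 and 31 UMIs.

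The other 4 genes were not apart by this rule. Ltb measured 1168, 1254, 1252 and 1320 CPM, within 1.13-fold. Il2 measured 37.3, 30.2, 42.7 and 36.6 CPM, a 1.42-fold span with library 3 the highest, and it became apart after thinning (1.59-fold) and in G1 cells alone (1.51-fold). Il2 and Il15 are the genes whose knockouts were studied: Il2 was counted in every library and Il15 had 16 UMIs in all, and with unassigned libraries neither checks a label. Osm measured 12.5, 15.9, 12.4 and 15.5 CPM, and Tnf 2.15, 3.90, 1.92 and 3.23 CPM with overlapping intervals. Without library 3, 0 of the 7 genes were apart, and when each cell was given the same weight Lta alone was. The share of all genes apart was computed in the main setting only (24.0%). Calls in other settings therefore have no share over all genes to be set against. Areg was not apart after thinning (2.74-fold), nor Ebi3 in G1 cells alone (1.76-fold).

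**Figure D2:**
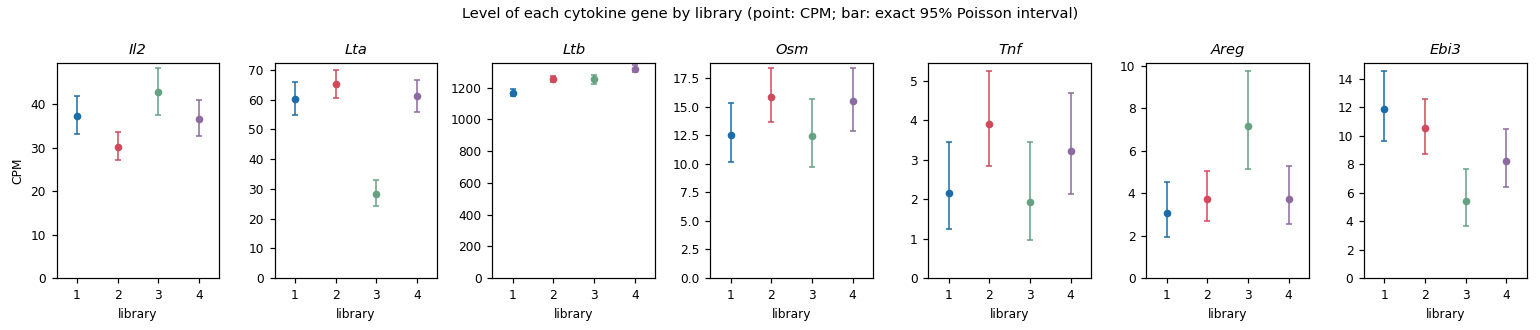
Level of each gene in CPM (linear axes from 0) in libraries 1 to 4, with exact 95% Poisson intervals. Lta and Ebi3 are lowest and Areg is highest in library 3, while Ltb lies between 1168 and 1320 CPM in all 4.

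Cells with 1 or more Il2ra UMIs, 2437 cells or 29.5%, were set against the 5836 cells with 0, within each library. Il2ra encodes the chain that gives the IL-2 receptor its high affinity. A gene was called where the ratio of levels, combined over libraries by the Mantel-Haenszel method, was at least 1.5-fold, its approximate 95% counting interval left out 1 and all 4 libraries went the same way. Of the 7 genes, 1 was called, Areg, higher with Il2ra. Over all 10177 genes 8.04% were called, 4.33% higher and 3.70% lower, so that 1 of 7 is near the background.

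Lta, which encodes the soluble lymphotoxin, was higher with Il2ra in 3 libraries and missed the rule through library 3. It measured 80.9, 87.5, 25.6 and 83.9 CPM in Il2ra-detected cells of libraries 1 to 4, against 40.0, 43.1, 28.6 and 44.8 CPM in Il2ra-undetected cells. In libraries 1, 2 and 4 the detected cells were higher with intervals that did not overlap, and in library 3, with 14 UMIs in its 139 detected cells, they were not. The log2 ratio was 0.95 (0.81 to 1.09, 1.93-fold), and without library 3 it was 0.98 (0.84 to 1.13, 1.98-fold). That was called, so that 2 of the 7 genes were higher without library 3, against 9.17% called of 9956 genes, 4.95% higher and 4.22% lower. Lta was found in 29.3% of detected and 11.0% of undetected cells, and after thinning in 14.2% (12.8 to 15.7) and 7.21% (6.51 to 7.95). The level was graded, with 39.1, 65.6, 82.6 and 107 CPM at 0, 1, 2 and 3 or more Il2ra UMIs. In libraries 1, 2 and 4 it was higher at each step, while library 3 had 0 Lta UMIs in its few cells with 3 or more. Of the 1356 Lta-positive cells, 52.6% had Il2ra, against 29.5% of all cells. These shares pool the libraries and are not corrected for depth. Library 3 was low in both genes, with 7.51% of its cells Lta-positive and 6.82% Il2ra-positive. Lta-positive cells had a median of 3908 UMIs, against 3003 in the others.

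Areg, the EGF-family ligand, measured 3.60, 5.19, 23.8 and 4.59 CPM in Il2ra-detected cells, against 2.50, 2.29, 5.41 and 3.08 CPM in undetected cells. All 4 libraries were higher with Il2ra, but in libraries 1, 2 and 4 the intervals overlapped. The log2 ratio was 1.07 (0.57 to 1.57, 2.10-fold), and without library 3, where 13 UMIs fell in 8 detected cells, it was 0.81 (0.22 to 1.40, 1.75-fold). The call was lost among cells that had a UMI of the TCR-response genes, where the ratio was 1.45-fold, and after thinning, where the log2 ratio was 1.00 (0.23 to 1.77).

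The other genes were not called. Ebi3 measured 12.3, 12.0, 7.32 and 11.2 CPM in detected cells, against 11.5, 9.15, 5.22 and 6.16 CPM in undetected cells. All 4 libraries were higher with Il2ra, but the combined ratio was 1.33-fold (log2 0.41, 0.08 to 0.74). It was 1.01-fold when cells were compared within depth quintiles and 1.90-fold after thinning, so its size depends on how depth is treated. Ebi3-positive cells had a median of 6285 UMIs, against 3100 in the others. Ebi3 measured 7.86, 9.01, 11.1 and 16.2 CPM at 0, 1, 2 and 3 or more Il2ra UMIs, with the highest step resting on 67 UMIs. These steps sum the libraries. Library 3, the lowest for Ebi3, gave 1898 of the 5836 cells with 0 Il2ra UMIs but 4 of the 631 with 3 or more. Its part in the rise was not tested. Tnf measured 2.57, 4.29, 7.32 and 3.73 CPM in detected cells, against 1.75, 3.52, 1.35 and 2.88 CPM in undetected cells, a log2 ratio of 0.51 (-0.05 to 1.08) with overlapping intervals. Ltb, the membrane anchor of the lymphotoxin trimer, had a log2 ratio of 0.16, lower in library 3 and higher in the others, with 1238, 1313, 1192 and 1446 CPM against 1100, 1197, 1258 and 1229 CPM. Osm had one of 0.11 with 2 libraries each way. Il2 was lower with Il2ra in all 4 libraries, at 35.7, 29.0, 40.2 and 30.2 CPM against 38.8, 31.3, 42.9 and 41.3 CPM, a log2 ratio of -0.21 (-0.39 to -0.03). Its share of positive cells went the other way before thinning, at 15.3% against 12.0%, at median depths of 4411 and 2783 UMIs. After thinning the share was 5.23% (4.37 to 6.21) against 6.73% (6.06 to 7.46), with overlapping intervals. It was then lower with Il2ra in all 4 libraries, as the level was. The ratio of levels, 0.865-fold, did not reach the 1.5-fold limit.

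Marker lists moved with this division too. The 9 Treg genes summed to 4008 to 4524 CPM over libraries in detected cells, against 2591 to 3168 CPM in undetected cells. The 5 conventional CD4 T cell genes (Cd4, Cd3e, Lef1, Tcf7 and Ccr7) summed to 1535 to 1915 CPM, against 1989 to 2358 CPM. For each of these lists the ranges of the sum do not overlap. With libraries pooled, the Treg sum rose mostly through Tnfrsf4 (1590 against 830 CPM) and Tnfrsf18 (1091 against 668 CPM). Ctla4, Gpr83, Lrrc32 and Nrp1 were also higher. Foxp3 (12.5 against 13.8 CPM), Ikzf2 (946 against 956 CPM) and Ikzf4 (98.9 against 102 CPM) were not. The 6 double-positive genes summed to 43.9, 31.3, 154 and 40.2 CPM in libraries 1 to 4, against 50.3, 76.2, 98.2 and 143 CPM, lower with Il2ra except in library 3, with no member at 0. The 2 erythroid genes of library 3 summed to 36.6 CPM, against 1693 CPM. The list for NK, NKT and gamma delta T cells (5 genes) summed to 106 to 248 CPM, against 27.8 to 153 CPM. Nearly all of that was Nkg7, and Ncr1 was at 0. The part of these lists in the results was not tested, but without the double-positive-marker cells Areg was still called (2.09-fold) and Lta was 1.92-fold higher.

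Cells with 1 or more UMIs over Nr4a3, Egr2 and Irf4, 730 cells or 8.82%, were then set against the 7543 cells with 0. By the same rule, 2 of the 7 genes were called, Areg higher and Osm lower. Of all 10177 genes 6.57% were called, 3.88% higher and 2.69% lower. Areg showed the largest ratio of the 7. It measured 11.6, 14.7, 33.9 and 17.1 CPM in TCR-response-detected cells of libraries 1 to 4, against 1.87, 2.13, 5.09 and 1.90 CPM in undetected cells. In every library the interval of the detected cells lay above that of the undetected cells. The log2 ratio was 2.84 (2.35 to 3.33, 7.15-fold), and 2.87 without library 3. Areg was found in 5.89% (4.30 to 7.85) of detected and 0.862% (0.666 to 1.10) of undetected cells, and after thinning in 1.89% and 0.503%. The detected cells held 63 of the 138 Areg UMIs, and 39.8% of the 108 Areg-positive cells against 8.82% of all cells. These shares pool the libraries and are not corrected for depth. Areg-positive cells had a median of 3781.5 UMIs, against 3136 in the others.

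Areg was also graded, at 2.55, 11.2, 21.6 and 33.2 CPM with 0, 1, 2 and 3 or more UMIs of the TCR-response genes. The last step rests on 21 UMIs, 13 of them in library 4, and in libraries 2 and 3 the level at 3 or more was under that at 2 with overlapping intervals. In library 4 the level at 1 UMI, from 1 Areg UMI, was no higher than at 0. Few molecules define these classes. When the cells were divided on thinned counts the Areg ratio was 2.76-fold and not called, with fewer UMIs on both sides.

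Osm, the IL-6 family ligand, was lower. It measured 4.23, 9.81, 7.25 and 9.04 CPM in detected cells, from 4, 14, 3 and 9 UMIs, against 13.7, 16.8, 12.8 and 16.3 CPM in undetected cells. All 4 libraries were lower, although single intervals overlapped in libraries 2, 3 and 4. The log2 ratio was -0.94 (-1.47 to -0.41, 0.522-fold). Along the TCR-response UMIs it measured 15.2, 9.59, 6.17 and 3.17 CPM, the last from 2 UMIs. The share of Osm-positive cells was 3.70% against 5.48%, and after thinning 2.32% (1.33 to 3.74) against 3.05% (2.65 to 3.49), where the intervals overlapped and the ratio, 0.748-fold, was not called.

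Tnf measured 3.17, 7.71, 0 and 11.0 CPM in detected cells, from 3, 11, 0 and 11 UMIs, against 2.02, 3.35, 2.07 and 2.18 CPM in undetected cells. It was higher in libraries 1, 2 and 4, while library 3 had 0 UMIs in its 125 detected cells, where 3 UMIs would be 7.25 CPM. The log2 ratio was 1.38 (0.72 to 2.03, 2.60-fold) and was not called because of library 3. Without that library it was 2.86-fold and called, so that 3 of the 7 genes were called, Areg and Tnf higher and Osm lower, against 7.18% of 9956 genes, 4.27% higher and 2.91% lower. Tnf-positive cells had a median of 5331.5 UMIs, against 3134 in the others.

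The remaining genes showed ratios near 1 when combined over libraries. Lta measured 47.6, 65.9, 9.67 and 50.2 CPM in detected cells, against 61.9, 65.0, 29.8 and 62.6 CPM in undetected cells, a log2 ratio of -0.23 (-0.44 to -0.01). In library 3, with 4 UMIs in detected cells, Lta was lower with intervals that did not overlap (2.64 to 24.8 against 25.3 to 34.8 CPM). Ltb was slightly lower in all 4 libraries, with 1069, 1169, 1146 and 1171 CPM against 1181, 1266, 1260 and 1340 CPM, a log2 ratio of -0.15 (-0.19 to -0.10). Il2 had a log2 ratio of -0.11 (-0.38 to 0.15) and Ebi3 one of 0.15 (-0.32 to 0.63). The 2 libraries higher and 2 lower for each show no shared direction.

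The 6 double-positive genes summed to 16.9 to 32.1 CPM over libraries in TCR-response-detected cells, against 50.1 to 110 CPM in undetected cells. The sum of the Treg genes was 3758 to 5028 CPM, against 2655 to 3668 CPM, and was higher in all 4 libraries. With libraries pooled, its members split. Tnfrsf4 (1900 against 1041 CPM), Tnfrsf18 (1133 against 802 CPM), Lrrc32 (98.6 against 62.5 CPM) and Ikzf2 (992 against 947 CPM) were higher. Lower, in CPM, were Foxp3 (8.72 against 13.9), Ctla4 (140 against 154), Ikzf4 (72.7 against 104), Gpr83 (127 against 165) and Nrp1 (43.6 against 47.6). The conventional CD4 T cell genes summed to 1683, 1734, 2048 and 1563 CPM in libraries 1 to 4, against 1905, 1956, 2336 and 1832 CPM, lower in all 4. The NK, NKT and gamma delta T list summed to 320, 236, 33.9 and 143 CPM, against 184, 159, 35.4 and 111 CPM, higher in libraries 1, 2 and 4. The erythroid genes of library 3 summed to 38.7 CPM, against 1651 CPM. The 7 myeloid and dendritic genes summed to 63.8 to 239 CPM, against 52.1 to 115 CPM. Of these, Itgax, Csf1r, Flt3 and Siglech were at 0 in all cells and Lyz2 had 1 UMI, while Cd74 made up most of the sum. Their part in the results was not tested. Without the double-positive-marker cells Areg was 7.07-fold higher and Osm 0.516-fold.

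**Figure D3:**
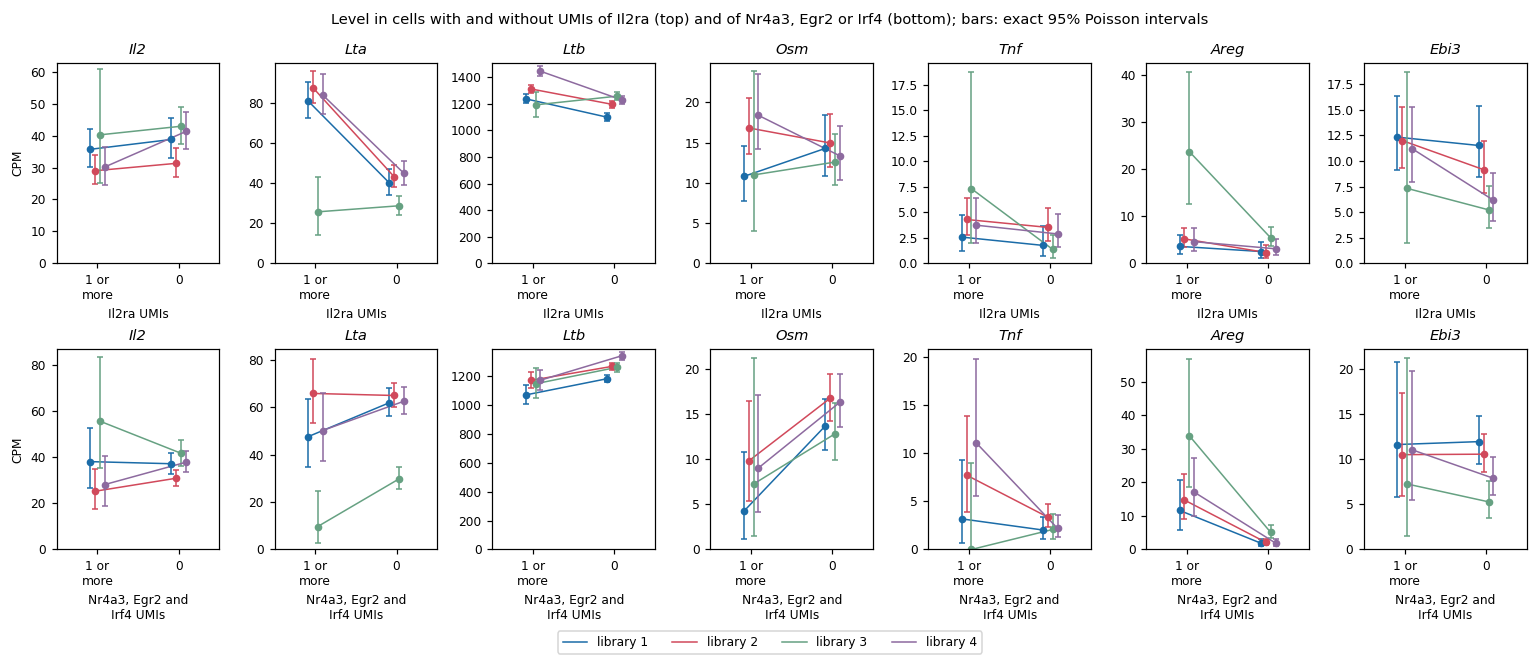
Level in CPM (linear axes from 0) of the 7 genes in cells with 1 or more UMIs (left in each panel) and with 0 UMIs (right) of Il2ra (top) or of Nr4a3, Egr2 and Irf4 (bottom). Lines join the 2 values of a library and bars are exact 95% Poisson intervals. Lta is higher with Il2ra in libraries 1, 2 and 4, and Areg is higher and Osm lower with the TCR-response genes in every library.

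**Figure D4:**
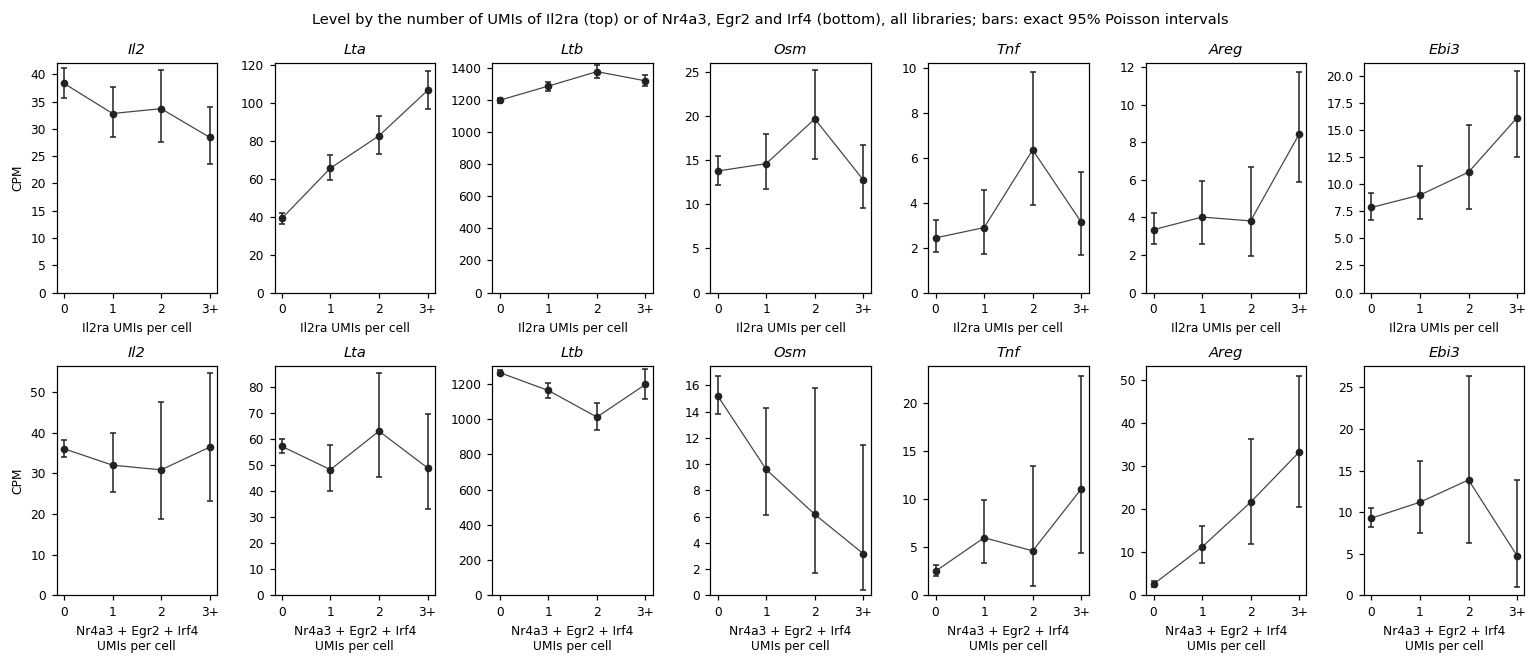
Level in CPM (linear axes from 0) of the 7 genes at 0, 1, 2 and 3 or more UMIs of Il2ra (top) or of Nr4a3, Egr2 and Irf4 together (bottom), all libraries summed, with exact 95% Poisson intervals. Lta goes up with Il2ra from 39.1 to 107 CPM, and with the TCR-response genes Areg goes up from 2.55 to 33.2 CPM and Osm goes down from 15.2 to 3.17 CPM.

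The divisions overlap, with 343 cells positive in both and 5449 in neither, so the levels were also given with both crossed. Lta measured 58.9 CPM (49.3 to 69.8) with both, 86.8 CPM (81.4 to 92.4) with Il2ra alone, 39.3 CPM (30.0 to 50.6) with the TCR-response genes alone and 39.1 CPM (36.3 to 42.1) with neither. It was thus highest in Il2ra-detected cells that lacked the TCR-response genes, where its ratio to cells with neither was 2.06-fold over libraries. Areg measured 17.7 CPM (12.7 to 24.1), 2.84 CPM (1.94 to 4.01), 15.1 CPM (9.56 to 22.6) and 2.36 CPM (1.71 to 3.18) in the same order. Its level followed the TCR-response genes whether or not Il2ra was found, at 6.17-fold among Il2ra-detected and 6.86-fold among undetected cells. The 88.1 CPM of library 3 with both rests on 8 UMIs in 3 cells. Osm measured 7.53, 16.8, 8.52 and 14.2 CPM, lower with the TCR-response genes in both, though among Il2ra-undetected cells, with 13 UMIs, it was not called. Tnf measured 7.53, 3.02, 5.24 and 2.2 CPM from 17, 34, 8 and 40 UMIs.

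**Figure D5:**
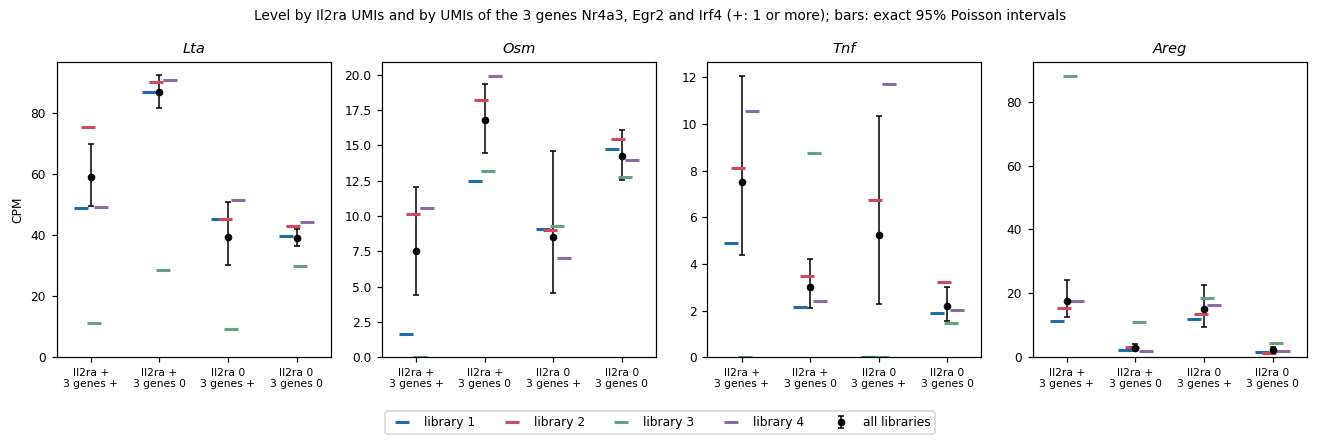
Level in CPM (linear axes from 0) of Lta, Osm, Tnf and Areg in cells divided by Il2ra UMIs and by UMIs of the 3 genes Nr4a3, Egr2 and Irf4. Black points are all libraries summed with exact 95% Poisson intervals, and coloured bars are single libraries. Lta is highest with Il2ra alone (86.8 CPM), and Areg is high in both classes with the TCR-response genes (17.7 and 15.1 CPM).

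The receptors of these cytokines were counted unevenly in the same cells. Of 13 receptor genes, 6 were under 50 UMIs: Osmr had 0 UMIs, Ltbr, Lifr and Egfr had 1 each, and Tnfrsf14 and Il12rb2 had 19 each. Il2rb, the signalling chain shared by IL-2 and IL-15, was higher with Il2ra (252 against 156 CPM, log2 ratio 0.59), just past the 1.5-fold limit, and just under it without library 3 (log2 ratio 0.58, 1.49-fold). Il6st, the signalling chain for oncostatin M, was lower (29.2 against 52.3 CPM), as was Tnfrsf1a, a TNF receptor (9.69 against 15.9 CPM). These made 1 of 6 tested receptors higher and 2 lower, where 4.33% of all genes were higher and 3.70% lower, with a median log2 ratio of -0.27, against -0.03 for all genes. With the TCR-response genes 1 of 7 was higher, Il2ra itself (227 against 140 CPM, 1.52-fold, not called without library 3), and 0 were lower, where 3.88% of all genes were higher and 2.69% lower, with a median of 0.07 against -0.01 for all genes.

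Of 39 other ligand genes 29 were under the minimum, among them Il27 and Il12a, the partners of Ebi3, with 0 and 2 UMIs, and Il10 with 11. Of the 10 tested, 4 were higher and 2 lower with Il2ra, and 5 were higher and 0 lower with the TCR-response genes, with median log2 ratios of 0.35 and 0.69. Over all genes 4.33% were higher and 3.70% lower with Il2ra, 3.88% and 2.69% with the TCR-response genes, and the medians were -0.03 and -0.01. Without library 3 the counts were 3 higher and 1 lower with Il2ra, and 6 higher and 0 lower with the TCR-response genes. Xcl1, a chemokine that attracts XCR1-bearing dendritic cells, was higher in both, at 27.5 against 7.51 CPM (3.64-fold) and 71.4 against 8.49 CPM (8.05-fold). Tnfsf9, the 4-1BB ligand, was higher in both (2.15-fold and 2.84-fold), as was Tnfsf14 (1.80-fold and 3.45-fold), which shares Ltbr with the lymphotoxins. Cd40lg, which activates CD40-bearing cells, differed in direction: 7.33 against 13.3 CPM with Il2ra and 23.8 against 9.20 CPM with the TCR-response genes.

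Among 18 genes of the NF-kB, NFAT and AP-1 factors, which control many cytokine genes, 3 were higher with Il2ra (Batf, Nfkb2 and Rel) and 10 with the TCR-response genes, with 0 lower in either. Their medians were 0.24 and 0.65, against -0.03 and -0.01 for all genes, of which 4.33% were higher with Il2ra and 3.88% with the TCR-response genes. Fosl2 (14.3 against 2.61 CPM), Nfkbid (141 against 31.2 CPM), Nfatc1 (36.2 against 16.7 CPM) and Batf (118 against 53.5 CPM) had the largest ratios with the TCR-response genes. Of 12 STAT5 response genes 4 were higher with Il2ra: Socs2 (4.58-fold), Myc (116 against 45.4 CPM), Pim1 (271 against 141 CPM) and Cish (147 against 82.4 CPM), with 0 lower and a median of 0.30, against 4.33% higher, 3.70% lower and -0.03 for all genes. With the TCR-response genes Myc was higher, Socs3 lower and the median -0.04, against 3.88% higher, 2.69% lower and -0.01 for all genes. Of 11 genes that control cytokine mRNA or shedding, Zfp36l2, whose product binds AU-rich mRNA, was lower in both divisions (131 against 217 CPM and 114 against 191 CPM). Rhbdf2, which helps ADAM17 to shed TNF and amphiregulin, was lower with Il2ra on 55 UMIs in all, and Zc3h12a, an RNase that degrades cytokine mRNA, was higher with the TCR-response genes. In all 0 were higher and 2 lower with Il2ra and 1 was higher and 1 lower with the TCR-response genes, with medians of -0.15 and 0.12. The same all-gene shares and medians apply there, 3.70% lower and -0.03 with Il2ra and 3.88% higher, 2.69% lower and -0.01 with the TCR-response genes. Without library 3, where Rhbdf2 was under the minimum, 0 were higher and 1 lower with Il2ra, against 4.95% and 4.22% of all genes. With the TCR-response genes 2 were then higher, Zfp36l1 (1.51-fold) being added, and 1 lower, against 4.27% and 2.91% of all genes.

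Patterns over 16 groups (library by Il2ra by TCR-response detection) were compared by the Pearson correlation of log2(CPM + 1) with 8055 genes of at least 200 UMIs. The groups share libraries, differ in depth and hold as few as 20 cells, so these are descriptions. The genes most like Areg were Nfkbid (0.97), Orai1 (0.96), a calcium channel subunit, and Tagap (0.95). Those most like Lta were Kif2c (0.94), Kif20a (0.94) and Drc1 (0.93), the first pair mitotic kinesins. Those most like Ebi3 were Rpl5, Rpsa and Lmnb1 (0.88, 0.87 and 0.87), and for Osm they were Tmem63a, Fyco1 and Hist1h2bc (all 0.92). Those most like Tnf were Mrpl28 (0.91), Ndc1 and Nup37, like Il2 Rere (0.89), Trim56 and Rab24, and like Ltb Ahcyl2 (0.75), Cpsf2 and Neil1.

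Pairs of the 7 genes were compared with the number of cells that their shares give. Ltb was found in 83.7% of thinned cells, so no pair with Ltb could reach 1.5-fold. Most of the other pairs had fewer than 5 such cells, so how often the 7 genes go together is not settled here. After thinning, Il2 and Ebi3 were found together in 10 cells where 6.21 would follow from their shares within libraries. It was the 1 pair of those with at least 5 such cells that reached 1.5-fold. No interval was computed, and no share over all pairs of genes. Lta and Osm were found together in 30 cells against 21.2, above in all 4 libraries, and Lta and Ltb in 643 against 587, also above in all 4. Lta and Il2 were found together in 42 cells against 42.4, no more than their shares give.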

How the data were processed

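The deposited UMI counts are whole numbers for 27998 genes in 8273 cells. The authors also deposited log2 values for 9571 genes in 7231 cells named as G1, each the log2 of a count divided by 1 factor per cell, plus 1 (checked against the counts, largest relative deviation 1.2e-14). That table served only to name the G1 cells. The mm10 build, Cell Ranger 2.0.2, CASAVA 2.20 and R 3.4.1 are named per the submitters' processing notes, the filtering of cells being not given in the sources used here. Symbols came from the GENCODE M21 annotation (27722 identifiers with one). Barcode suffixes were taken as libraries and left unassigned to samples.

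Cells had 795 to 32737 UMIs. No cell filter or doublet caller was applied. Ratios of CPM were Mantel-Haenszel ratios over libraries with 0.5 UMIs added, on genes with at least 50 UMIs. Thinning drew 1811 UMIs per cell, the 10th percentile, and left out 826 cells, unequally between the classes and libraries compared. These were 68 of 2437 cells with Il2ra and 758 of 5836 without. By the TCR-response genes they were 41 of 730 with and 785 of 7543 without. Thinning kept 1557 of 1609, 2317 of 2452, 1622 of 2037 and 1951 of 2175 cells of libraries 1 to 4. On simulated counts, with counting error alone, the rule recovered 49 of 50 genes changed 2-fold in either division. Of those changed 1.5-fold it recovered 22 of 50 by Il2ra and 24 of 50 by the TCR-response genes. The changed genes were drawn from those with at least 200 UMIs, so this recovery does not cover Areg (138 UMIs) or Tnf (99 UMIs). Apart from the 7 cytokine genes, named genes are up to 4 called per list and direction, and the 3 most alike per gene; receptors under the minimum and marker genes are checks, the markers being named after their values were seen. The genes and lists were chosen with earlier results of these data known. Alternatives covered scaling, depth, cells, thresholds and each library left out. Python 3.11.15, numpy 2.4.6, scipy 1.17.1, matplotlib 3.10.9, and edgeR 4.0.16 (TMM factors) in R 4.3.3 were used.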

Additional observations from a re-analysis of the deposited data

How the results depend on the processing

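No paired analysis was possible because each group has 1 sample and no barcode column names a sample. In no alternative did a ratio of the 7 genes reverse past the threshold. By Il2ra detection, 1 gene was called (Areg). This became 2 without library strata or with G1 cells alone (Tnf and Areg), 2 after thinning (Lta and Ebi3, while Areg, with a log2 ratio of 1.00, was not called), 3 with at least 2 Il2ra UMIs (Lta, Tnf and Areg), 0 with a minimum of 200 UMIs, which leaves Areg and Tnf untested, 0 within TCR-response-detected cells, and 1 to 2 on leaving out each library. With classes set on thinned counts, an alternative chosen after seeing the data, it was again 1, but Lta (2.06-fold) in place of Areg (1.98-fold, not called). The shares of all genes called by Il2ra were 8.04% in the main setting, 10.9% without strata, 8.33% in G1 cells and 6.26% after thinning. They were 9.74% with at least 2 Il2ra UMIs, 7.04% at 200 UMIs and 11.6% within TCR-response-detected cells. Leaving out each library gave 8.49% to 9.17%, and classes on thinned counts 3.41%. By TCR-response detection, 2 were called (Osm and Areg). This became 1 after thinning (Areg), 0 with classes set on thinned counts, 1 at 200 UMIs (Osm), 1 at 2-fold (Areg), 1 by Egr2 alone (Areg), 1 by Irf4 alone (Osm) and 1 within Il2ra-undetected cells (Areg). It was 2 to 3 on leaving out each library. The shares of all genes called by TCR-response detection were 6.57% in the main setting, 5.66% after thinning and 3.82% with classes on thinned counts. They were 6.38% at 200 UMIs, 2.03% at 2-fold, 2.40% by Egr2 alone and 11.2% by Irf4 alone. Il2ra-undetected cells gave 3.99%, and leaving out each library 6.90% to 7.59%. Genes apart between libraries numbered 3 (Lta, Areg and Ebi3), and 3 after thinning (Il2, Lta and Ebi3) or in G1 cells alone (Il2, Lta and Areg), but 1 with cells weighted alike (Lta), and 0 to 3 on leaving out each library, also added after seeing the data. The share of all genes apart was 24.0% in the main setting and was not computed in the others. Pairs found together beyond 1.5-fold numbered 1, and 3 with all UMIs.

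Over all genes, the 818 called by Il2ra became 318 within depth quintiles, 303 with classes on thinned counts and 152 at 2-fold. The 669 called by the TCR-response genes became 339, 207 at 2-fold, 244 by Egr2 alone, 1135 by Irf4 alone and 380 in Il2ra-undetected cells. With TMM scaling, 47.9% of those calls were higher (335 of 700), against 59.0% (395 of 669). Except where stated, the causes were not tested. Depth limits Tnf and Areg most: their 99 and 138 UMIs leave few per library and class.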
